A study of Mus musculus with 4 samples.

Results

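Accessible chromatin was examined at the genes of 4 classical cadherins (Cdh1, Cdh2, Cdh3 and Cdh11) and 4 catenins (Ctnna1, Ctnnb1, Ctnnd1 and Jup). All FAIRE peaks lying in the body of each gene, or in the 50 kb before its outermost annotated start site, were collected from 4 peak lists. The 8 loci held 27 of the 35796 regions obtained when overlapping peaks of the 4 lists were merged. FAIRE-seq sequences the DNA left free of crosslinked protein after formaldehyde fixation and so marks open chromatin. It was carried out at day 4 in EpRas cells, an H-Ras-transformed derivative of the mouse mammary epithelial line EpH4, so every group carries active H-Ras. Cells that had received control siRNA (siControl) were either left untreated or given TGF-β at 1 ng/ml. A further pair of groups received the same dose of TGF-β after siRNAs against the ETS factor genes Etv4 and Etv5 (siEtv4/5), as set 1 or as set 2. Both sets used the same siControl library with TGF-β as their control. There was 1 list per group, each possibly combining biological replicates, so the spread between replicates was not measured and no difference between groups was tested.

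Classical cadherins are single-pass membrane proteins whose outer domains bind the same cadherin on a neighbouring cell. β-catenin or its close relative plakoglobin binds the end of the cadherin tail, α-catenin links that complex to actin, and p120-catenin binds next to the membrane and keeps the cadherin at the cell surface. Epithelial cells rely mainly on E-cadherin, and a shift from E-cadherin to N-cadherin is the classical hallmark of epithelial-mesenchymal transition (EMT), which TGF-β induces. β-catenin also acts in the nucleus as the coactivator of Wnt signaling, and plakoglobin is shared between adherens junctions and desmosomes.

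Estimated depth ran from 15.3 to 20.7 M reads. The lists held 22247 peaks (untreated), 28754 (TGF-β), 22516 (set 1) and 14925 (set 2). The set 2 library had the greatest estimated depth, the shortest list and the lowest median fold enrichment (7.15, against 7.91 to 8.44 in the other libraries). As a check of the cell type, promoter regions of marker genes were counted. Across all protein-coding genes, 42.5% had one in some library and 23.6% in all 4. All 7 epithelial marker genes (Epcam, Krt7, Krt8, Krt18, Cldn7, Elf3 and Esrp1) had a promoter region in at least 1 library, and 2 of them had it in all 4. None of the 3 blood markers (Ptprc, Cd3e and Spi1) had one, nor did Alb or Hbb-bs. Of 3 fibroblast markers 2 had one, Pdgfra in the untreated library and Col1a1 with set 2. Of 3 endothelial markers 1 had one, Pecam1 with TGF-β, and of 3 basal mammary markers 1, Krt14, had it in every library.

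The regions on which the results turn are shown first, as mm10 reference sequence. Capitals mark matches, on either strand, to an E-box (CAGGTG), an AP-1 site (TGANTCA), an ETS core (CNGGAA), a RUNX core (TGNGGT) or a TCF/LEF site (CTTTGA). The first 4 are the Cdh1 and Cdh3 regions of highest fold enrichment, on the plus strand: Cdh1 upstream at chr8:106561184-106561434, Cdh1 intronic at chr8:106619663-106619931, Cdh3 intronic at chr8:106518752-106519038, and the inner 300 bases of the other Cdh3 intronic region at chr8:106529881-106530180.
Cdh1 upstream region: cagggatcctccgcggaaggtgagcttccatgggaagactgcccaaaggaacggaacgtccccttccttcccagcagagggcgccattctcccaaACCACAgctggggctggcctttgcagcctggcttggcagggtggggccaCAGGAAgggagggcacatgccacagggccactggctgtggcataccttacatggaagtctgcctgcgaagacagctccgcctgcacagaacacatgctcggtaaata
Cdh1 intronic region: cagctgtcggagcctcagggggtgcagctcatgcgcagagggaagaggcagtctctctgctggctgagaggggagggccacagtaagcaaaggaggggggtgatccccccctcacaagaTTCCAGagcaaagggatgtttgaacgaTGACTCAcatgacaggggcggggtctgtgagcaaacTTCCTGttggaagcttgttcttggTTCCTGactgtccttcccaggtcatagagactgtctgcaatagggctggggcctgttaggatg
Cdh3 intronic region gained with TGF-β: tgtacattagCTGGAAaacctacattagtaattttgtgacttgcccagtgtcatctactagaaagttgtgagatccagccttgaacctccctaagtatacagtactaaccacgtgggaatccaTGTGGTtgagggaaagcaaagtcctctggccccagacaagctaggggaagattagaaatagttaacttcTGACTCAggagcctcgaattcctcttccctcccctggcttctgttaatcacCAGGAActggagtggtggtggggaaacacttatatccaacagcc
Cdh3 intronic region called in all libraries: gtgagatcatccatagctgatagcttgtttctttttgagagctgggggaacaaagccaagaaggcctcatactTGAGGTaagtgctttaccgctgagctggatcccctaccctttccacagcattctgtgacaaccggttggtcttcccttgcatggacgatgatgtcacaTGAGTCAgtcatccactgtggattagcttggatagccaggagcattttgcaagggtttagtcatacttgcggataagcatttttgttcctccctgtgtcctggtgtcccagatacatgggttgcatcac

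The next 3 are promoter sequences of catenins, each ending before the start site used here: Ctnnb1 at chr9:120933212-120933394 on the plus strand, Ctnnd1 at chr2:84650766-84650990 on the minus strand and Jup at chr11:100397764-100398040 on the minus strand. The last 2 come from the RefSeq promoter table for this build, which held entries for Ctnnb1, Ctnnd1 and Jup. Ctnnb1 is the peak itself, read from the genome. They are shown because they differ widely in base composition, at 77.6% G and C for Ctnnb1, 38.2% for Ctnnd1 and 60.6% for Jup.
Ctnnb1 promoter region: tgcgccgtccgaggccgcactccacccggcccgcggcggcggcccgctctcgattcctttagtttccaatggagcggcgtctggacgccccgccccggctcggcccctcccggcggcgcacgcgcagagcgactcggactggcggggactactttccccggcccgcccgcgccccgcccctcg
Ctnnd1 promoter region: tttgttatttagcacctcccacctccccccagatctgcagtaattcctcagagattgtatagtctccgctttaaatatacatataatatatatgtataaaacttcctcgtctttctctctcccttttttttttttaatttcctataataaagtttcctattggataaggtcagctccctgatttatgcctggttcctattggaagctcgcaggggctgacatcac
Jup promoter region: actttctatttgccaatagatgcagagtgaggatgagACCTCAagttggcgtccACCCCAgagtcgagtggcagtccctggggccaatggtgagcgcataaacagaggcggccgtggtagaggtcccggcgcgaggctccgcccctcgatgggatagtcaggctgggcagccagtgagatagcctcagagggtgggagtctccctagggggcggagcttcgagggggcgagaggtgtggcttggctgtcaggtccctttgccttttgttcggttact

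The Cdh1 intronic sequence held 1 AP-1 match and 3 ETS matches, and the Cdh1 upstream sequence 1 RUNX and 1 ETS match. Both Cdh3 sequences held 1 AP-1 and 1 RUNX match, and the one gained with TGF-β also held 2 ETS matches. The Jup promoter held 2 RUNX matches, and the printed Ctnnb1 and Ctnnd1 sequences held none of the 5 motifs. A match is a description of the letters and not evidence of binding. In 300 bp windows around the summit, AP-1 was matched in 13 of the 27 regions (48.1%, against 40.4% of all 35785 windows) and the ETS core in 12 (44.4%, against 64.9%). RUNX was matched in 12 (44.4% against 52.0%), the E-box in 7 (25.9% against 19.6%) and TCF/LEF in 5 (18.5% against 17.5%). The window at the Cdh1 promoter held 3 E-box matches, the sequence bound by the Snail and Zeb repressors of E-cadherin, and no AP-1 or ETS match. The window at the Jup promoter, which was called in all 4 libraries, also held 2 E-box matches, none of them within the printed sequence. These shares were not tested.

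The 27 regions were spread unevenly over the genes, from 7 at Ctnnd1 to none at Cdh11. The untreated list contained 15 of them, the TGF-β list 20, and those of set 1 and set 2 contained 19 and 9. There were 4 promoter regions (middle within 2 kb of a start site), 16 intronic regions and 7 upstream regions, and no exonic region. In all 4 libraries 7 regions were called (25.9%, against 29.6% of all regions), and 10 were called in 1 library (37.0% against 31.5%). The 11 cadherin regions numbered 6 in each of the untreated, TGF-β and set 1 libraries and 4 with set 2. The 16 catenin regions numbered 9, 14, 13 and 5 in the order untreated, TGF-β, set 1 and set 2. A peak reflects all cells of a culture, so fewer cells with an open site and a less open site per cell cannot be told apart.

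**Figure D1:**
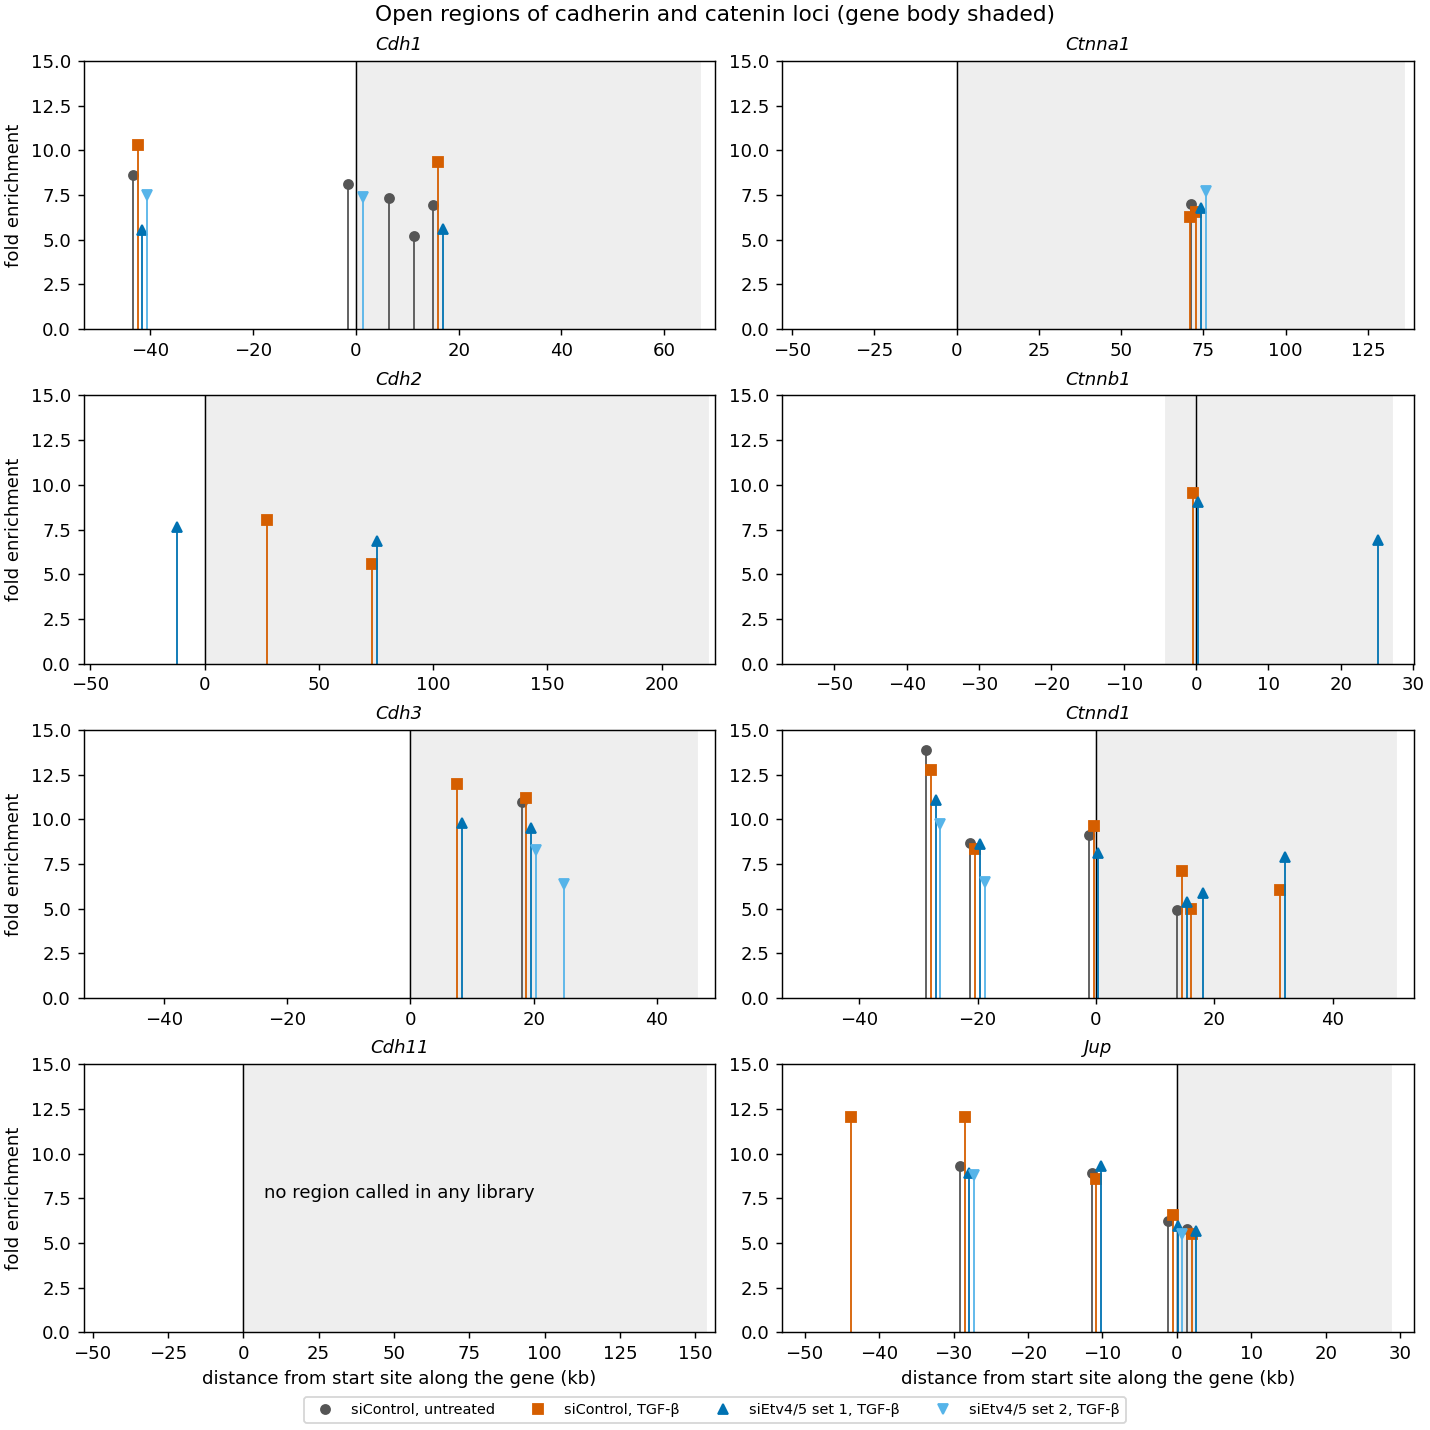
Fold enrichment (vertical axis) of each called region against its distance from the outermost start site of the GENCODE basic gene models in kb (horizontal axis, gene body shaded), with 1 panel per gene and 1 marker per library. Markers of the same region are offset sideways so that they can be told apart. Cdh1 had 5 regions without TGF-β and 2 in each other library, whereas Cdh2 had regions only with TGF-β and with set 1.

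Cdh1 (chr8:106603351-106670246, plus strand) encodes E-cadherin. It was the only one of the 8 loci with more regions without TGF-β than in any other library, with 5 regions untreated and 2 in each of the other libraries. The promoter region (chr8:106603170-106603365) lay 83 bp before the start site. It was called at a fold enrichment of 8.10 untreated and 7.39 with set 2, and was absent from the TGF-β and set 1 lists. The 2 libraries that called it each had 21 fragments over the summit (Poisson 95% interval 13.0 to 32.1, counting error only). Per M reads of estimated depth this was 1.37 untreated and 1.02 with set 2. At a local background like that expected here, the weakest peak on the list had 12 fragments with TGF-β (of 5559 such peaks) and 13 with set 1 (of 4633), so a site with fewer fragments would not have been listed. The absence of the Cdh1 promoter from these 2 lists is therefore a level below the calling limit, not a measured zero. Listed peaks of that background had a median of 23 fragments with TGF-β and 22 with set 1. The same promoter pattern, called untreated and with set 2 alone, was seen in 67 of 21938 protein-coding genes (0.305%). A promoter region was called for 36.02% of genes untreated and 38.0% with TGF-β, and for 34.1% and 27.2% with sets 1 and 2.

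The other Cdh1 regions lay in intron 2 and far upstream. In intron 2, regions 7.8 kb and 12.8 kb past the start site were called only in the untreated library, with fold enrichments of 7.36 and 5.22 from 27 and 20 fragments. In the other libraries, the weakest listed peaks at a like background had 16 to 18 fragments, so these absences too are levels below the calling limit. Another region of this intron, 16446 bp past the start, had a fold enrichment of 6.96 untreated, 9.36 with TGF-β and 5.60 with set 1, and was not called with set 2. In the TGF-β and set 1 libraries, neither of which called the promoter, it thus had the highest and the lowest of its called values. With set 2, listed peaks at a like background had at least 18 fragments, so its level there is unknown and may be lower still. The region 42.0 kb upstream, between the end of Cdh3 and the start of Cdh1, was called in every library. It lies closer to the end of Cdh3 and need not belong to Cdh1. Its fold enrichment was 8.64 untreated and 10.3 with TGF-β, then 5.57 and 7.53 with the siRNA sets 1 and 2. Its summit fragments were 25, 29, 18 and 23 in that order, and 1.64, 1.78, 1.04 and 1.11 per M reads of estimated depth. The intervals of the counts all overlap, which does not show that the levels were alike.

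Cdh3 (chr8:106510891-106557297, plus strand) encodes P-cadherin, which in mammary gland is typical of myoepithelial cells. It lies next to Cdh1 in the same orientation, but with another pattern of calls. All 3 regions lay in intron 2, and none at the promoter. The region 19.2 kb past the start was called in every library, at fold enrichments of 10.9, 11.2, 9.49 and 8.29 (untreated, TGF-β, set 1, set 2), from 36, 44, 38 and 33 fragments. The region 8.0 kb past the start was not called untreated and had 36 fragments (25.2 to 49.8) and a fold enrichment of 11.98 with TGF-β. With set 1 it had 25 fragments (16.2 to 36.9) and 9.77, and with set 2 it was not called. Peaks on the untreated list with a like background had at least 12 fragments (4410 peaks), and those on the set 2 list at least 13 (3591 peaks). The last region, 23.8 kb past the start, was called only with set 2, at 6.40 from 23 fragments.

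**Figure D2:**
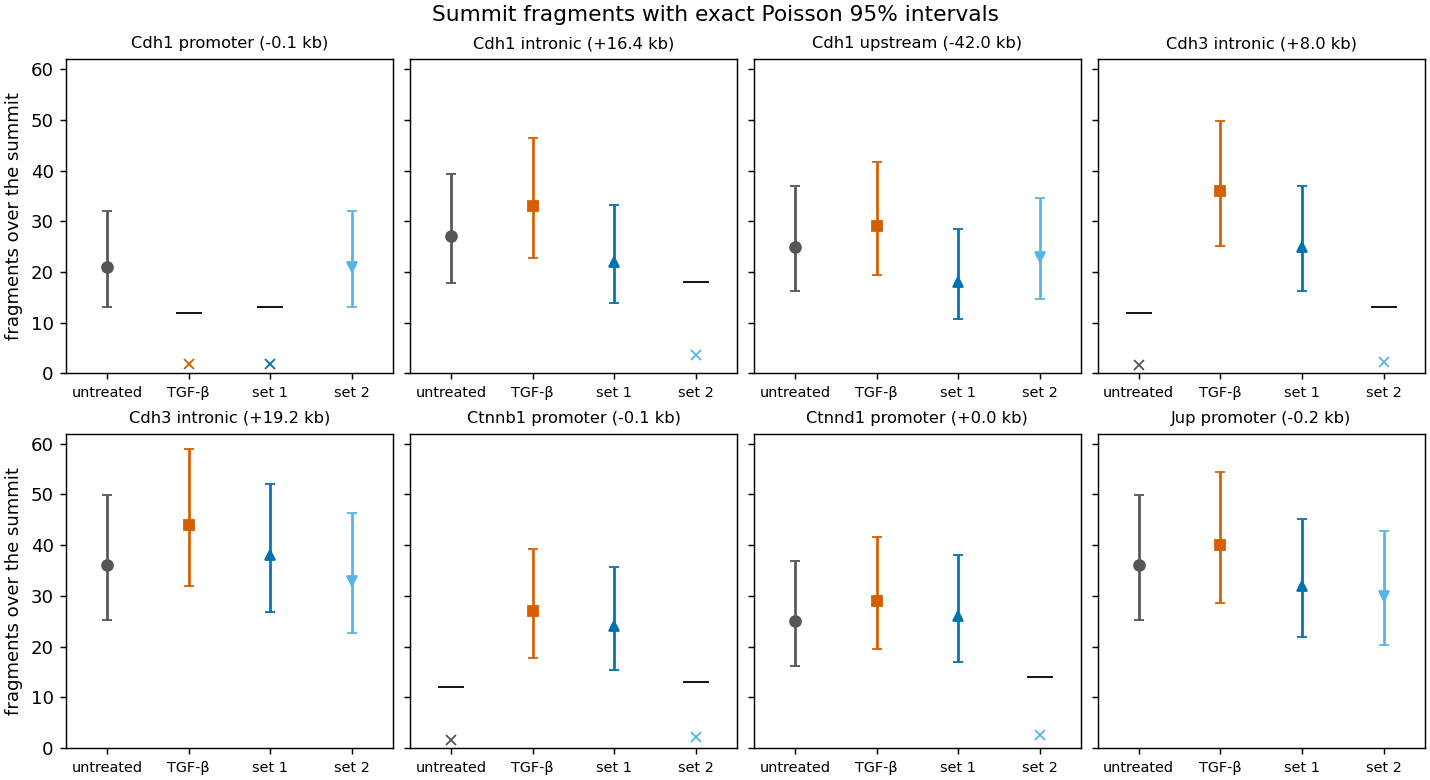
Fragments over the summit (vertical axis) in each library for the promoter regions and the leading Cdh1 and Cdh3 regions, with exact Poisson 95% intervals as bars. Where a region was not called, a black dash marks the fewest fragments of any listed peak with a like background and a cross marks that background. The Jup promoter was called in every library, from 30 to 40 fragments, and the Cdh1 promoter in 2, with 21 fragments each.

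Cdh2 (chr18:16588877-16809246, minus strand) encodes N-cadherin, the cadherin of mesenchymal and neural cells. It had no region in the untreated library and none with set 2, and 2 regions in each of the other libraries. The intron 2 region 74.4 kb past the start had a fold enrichment of 5.59 with TGF-β and 6.83 with set 1, from 17 and 16 fragments. The intron 1 region at 28.4 kb was called only with TGF-β, at 8.02 from 21 fragments, and a region 13.0 kb upstream only with set 1, at 7.65 from 17 fragments. Where the intronic regions were not called, listed peaks at a like background had at least 12 to 13 fragments (medians 21 to 22). For the upstream region they had at least 10 to 12 (medians 17 to 18). These absences too are levels below the calling limit. With lists of equal length no Cdh2 region was left in any library. No promoter region was called. Cdh11 (chr8:102632095-102785642, minus strand), the cadherin of osteoblasts and fibroblast-like cells, had no region in any library over 204 kb of gene body and upstream sequence. The same held for 27.1% of protein-coding genes.

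Ctnnb1 (chr9:120929216-120960507, plus strand) encodes β-catenin. Distances were taken from the outermost start of its basic gene models, while the gene record begins 4.2 kb earlier with a transcript outside that set. Its promoter region was called with TGF-β at a fold enrichment of 9.56 from 27 fragments (17.8 to 39.3), and with set 1 at 9.03 from 24 (15.38 to 35.7). It was not called untreated or with set 2, where listed peaks of a like background had at least 12 (4435 peaks) and 13 fragments (3703 peaks). This pattern was the opposite of that of the Cdh1 promoter, and 330 genes (1.504%) showed it at their promoter. A region in intron 13, where Ulk4 overlaps the gene, was called only with set 1, at 6.90 from 18 fragments.

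Jup (chr11:100368958-100397763, minus strand) encodes plakoglobin, and its promoter was the only one of the 8 called in all 4 libraries. Fold enrichments were 6.24 untreated, 6.57 with TGF-β, and 5.94 and 5.51 with sets 1 and 2, from 36, 40, 32 and 30 fragments. Per M reads of estimated depth, the summit fragments were further apart, at 2.36, 2.46, 1.85 and 1.45 in that order. An intron 1 region 2.3 kb past the start stayed between 5.53 and 5.77 in the 3 libraries that called it and was not called with set 2. The region 10.5 kb upstream likewise stayed between 8.57 and 9.29 and was not called with set 2. The region 28.2 kb upstream, inside Nt5c3b, was called in all libraries at 9.29, 12.1, 8.94 and 8.82, highest with TGF-β. A further region 43.4 kb upstream, called only with TGF-β at 12.1 from 25 fragments, lay at the start sites of Klhl10 and Nt5c3b and need not belong to Jup.

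Ctnnd1 (chr2:84600071-84650765, minus strand) encodes p120-catenin and had the most regions, 4 untreated, 6 in each of the TGF-β and set 1 libraries, and 2 with set 2. Its promoter region had a fold enrichment of 9.10 untreated, 9.63 with TGF-β and 8.14 with set 1, from 25, 29 and 26 fragments, and was not called with set 2. This region lay at the AT-rich start site shown above. RefSeq places another start 8.2 kb upstream, whose promoter window is 67.7% G and C, and no region was called within 2 kb of it in any library. Intron 1 held 3 regions, of which the one 14.9 kb past the start was called untreated, with TGF-β and with set 1, at 4.92, 7.11 and 5.35. The intron 6 region at 31.5 kb was called with TGF-β at 6.02 and with set 1 at 7.88. None of the intronic regions was called with set 2, and the overlapping gene model Gm28635 covers them all. Both regions that set 2 retained lay upstream, at the start sites of other genes. One, 27.5 kb upstream at Med19 and Tmx2, was the strongest of all 27, at 13.9, 12.8, 11.1 and 9.72 in the order untreated, TGF-β, set 1 and set 2. The other, 20.0 kb upstream at Selenoh, had 8.67, 8.34, 8.63 and 6.51 in the same order.

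Ctnna1 (chr18:35118859-35254779, plus strand) encodes αE-catenin. It had no promoter region, and its regions lay in intron 7. The one 73.5 kb past the start was called in every library, at a fold enrichment of 6.98 untreated, 6.55 with TGF-β, 6.77 with set 1 and 7.71 in the set 2 library. Of the 7 regions called with both TGF-β and set 2, it was the only one whose fold enrichment was higher with set 2. On FPM (summit fragments per M reads) the direction turned, from 1.48 with TGF-β to 1.26 with set 2, the lowest of the 4 libraries. Summit fragments, not scaled to depth, were 26, 24, 25 and 26, with intervals that all overlap. The FPM ratio of set 2 to siControl with TGF-β was 0.853, with a 95% interval of 0.471 to 1.55. The neighbouring region at 71.6 kb was called only with TGF-β, at 6.28 from 22 fragments.

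**Figure D3:**
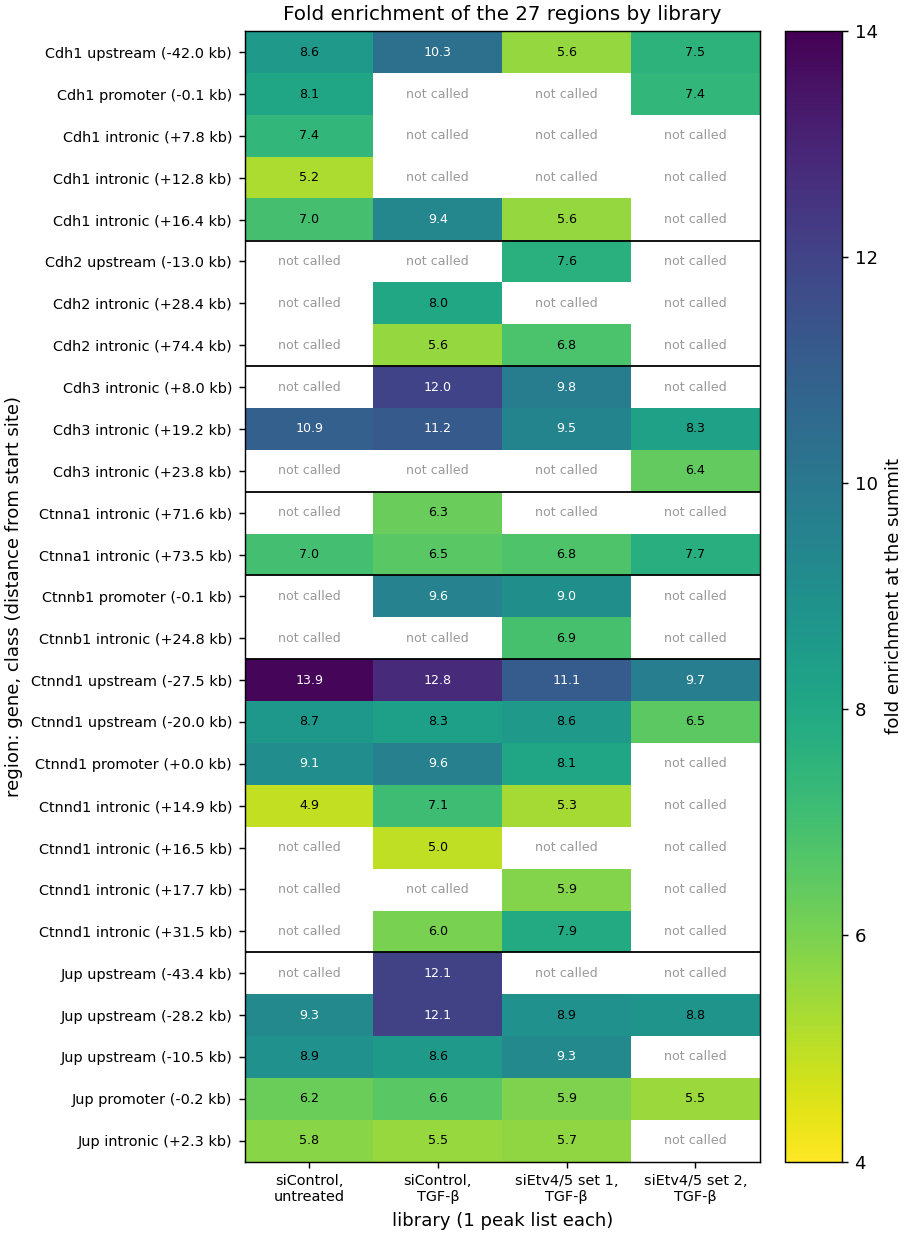
Fold enrichment at the summit for the 27 regions (rows, ordered by gene and distance from the start site) in the 4 libraries (columns), with empty cells where no peak was called. The set 2 column holds 9 values and the TGF-β column 20.

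The first comparison asked what TGF-β did in siControl cells. Of the 20 regions called with TGF-β, 8 (40%) had no overlapping peak untreated, against 37.0% of all peaks on that list. Of the 15 untreated regions, 3 (20%) had none with TGF-β, against 18.4% of all, and all 3 belonged to Cdh1: the promoter and the 2 intronic regions. The 8 gained regions were 2 at Cdh2, 2 at Ctnnd1 and 1 each at Cdh3, Ctnna1, Ctnnb1 and Jup. Both shares are near those of the whole lists. When each list was cut to its 14925 strongest peaks, 4 regions were gained and 6 lost, so the direction of the balance depended on list length. At the 12 regions called in both libraries the median log2 ratio of fold enrichment was 0.05, against 0.12 over all 18082 such regions. On fold enrichment none of the 12 changed by 1.5-fold, where 5.92% of all regions were at least that much higher and 0.924% that much lower. The largest rise, 0.53 on the log2 scale, was at the Ctnnd1 intron 1 region, from 20 to 34 fragments. In FPM that is a ratio of 1.60 with a 95% interval of 0.893 to 2.93, which includes no change. It was the only one of the 12 past 1.5-fold on FPM, where 10.6% of all regions were that much higher and 2.04% that much lower.

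The second comparison set siEtv4/5 set 1 against siControl, both with TGF-β. Of 20 regions 4 (20%) were lost, against 33.6% of all peaks, and of 19 regions 3 (15.8%) were gained, against 15.2%. At the 16 regions called in both, the median log2 ratio was -0.18, against -0.16 over all regions. The 2 that fell by at least 1.5-fold were both in the Cdh1 window (6.60% of all regions fell that far and 0.557% rose that far). One was the region 42.0 kb upstream, at -0.89, which need not belong to Cdh1. The other was the intronic region 16446 bp past the start, at -0.74. The FPM ratios of these 2 regions were 0.585 (0.306 to 1.09) and 0.628 (0.349 to 1.11), both with intervals that include 1. Neither set 1 peak passed a q-value of 1e-10, and with lists of equal length neither was left. The Cdh2 region shared by these libraries had a log2 ratio of 0.29 on fold enrichment but an FPM ratio of 0.886 (0.419 to 1.87), so its direction depended on the scale. On FPM, 3 of the 16 regions were at least 1.5-fold lower and none that much higher, against 15.1% and 0.710% of all regions. The 3 were these Cdh1 regions and the Cdh3 region 8.0 kb past the start. On that scale 14 of the 16 were lower, in place of 10.

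The third comparison set set 2 against the same siControl library. Here 13 of 20 regions (65%) were lost, against 53.6% of all peaks, and 2 of 9 (22.2%) were gained, against 10.3%. The gained regions were the Cdh1 promoter and the Cdh3 region 23.8 kb past the start. At the 7 regions called in both, the median log2 ratio was -0.40, against -0.38 over all 13318 regions. Of the 7, 6 were lower on fold enrichment and all 7 on FPM. On fold enrichment none changed by 1.5-fold, where 24.2% of all regions were that much lower and 0.0901% that much higher. On FPM, which does not divide by local background, 5 of the 7 were at least 1.5-fold lower and none that much higher, against 59.4% and 0.0451% of all regions. FPM ratios with intervals below 1 were seen at the Cdh3 region 19.2 kb past the start (0.591, 0.364 to 0.949), the Ctnnd1 region 27.5 kb upstream (0.571, 0.341 to 0.944) and the Jup promoter (0.591, 0.355 to 0.972). On the FPM scale the median log2 ratio was -0.72 at the 7 regions and -0.67 over all regions. The intervals just given are set against no change. Each of them includes this median over all regions, so they do not set these regions apart from the whole list. With lists of that equal length, 6 regions were lost and 4 gained, so the count of losses depended on list length. In calls, the siRNA sets thus differed at the Cdh1 promoter, called with set 2 and not with set 1, and at Cdh2, called with set 1 and not with set 2. With lists of equal length no Cdh2 region was left with either set. The Cdh1 promoter had 21 fragments with set 2, while the weakest set 1 peak at a like background had 13. These counts are not scaled to estimated depth, which was 20.7 M reads with set 2 and 17.3 M with set 1. The absence of this promoter with set 1 is therefore a level below the calling limit. These differences were not tested.

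**Figure D4:**
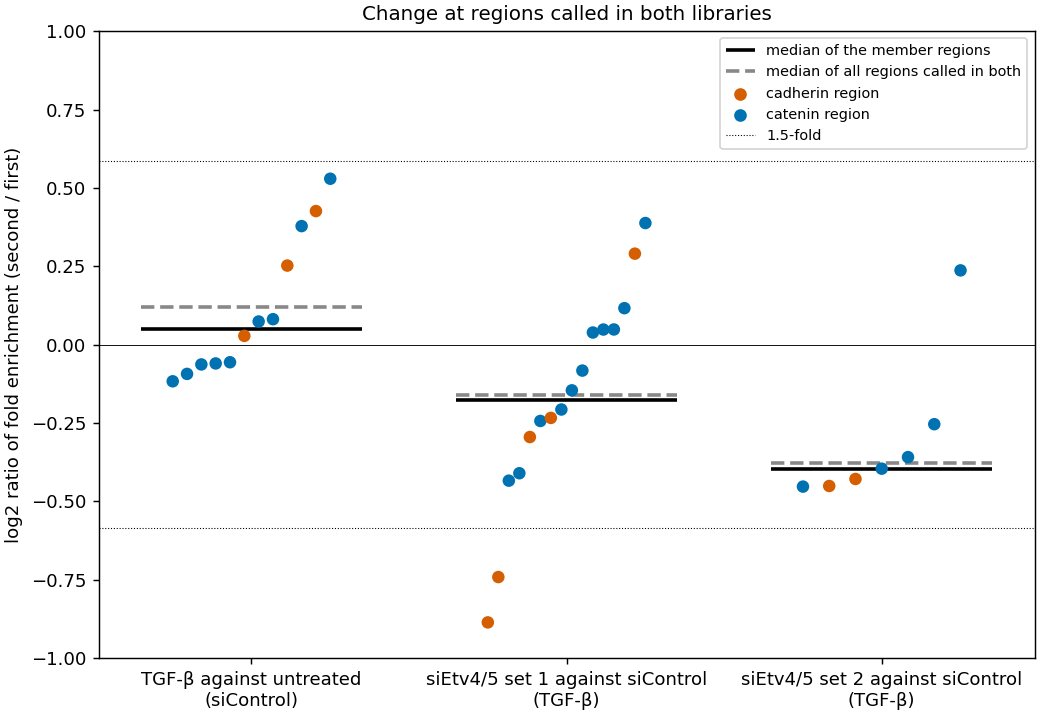
Log2 ratio of fold enrichment (vertical axis) at member regions called in both libraries of each comparison (horizontal axis), with cadherin and catenin regions in different colours, solid lines for the member median and dashed lines for the median of all regions. The member medians were 0.05, -0.18 and -0.40, beside 0.12, -0.16 and -0.38 for all regions. The 2 points below the dotted 1.5-fold line are regions of the Cdh1 window.

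Related junction genes were described by their counts. Of 18 other cadherin genes 13 had a region in some library, and none had a promoter region. Their regions numbered 22, 27, 17 and 16 in the order untreated, TGF-β, set 1 and set 2. All 16 other adherens junction genes had a region, 10 had a promoter region and 6 had it in every library. Across all protein-coding genes, 27.1% had no region in any library. A promoter region was called in some library for 42.5% of all protein-coding genes and in all 4 for 23.6%. The highest promoter value of this list with TGF-β was that of Ctnna3, an α-catenin best known from heart, at a fold enrichment of 11.4, followed by the actin crosslinker Actn4 at 11.3, the p120 relative Pkp4 at 9.95 and the actin-binding Lima1 at 9.70. Of 9 desmosome genes, 8 had a region and 3 had a promoter region: Perp in every library, the plakophilin gene Pkp1 untreated and with TGF-β, and Pkp3 with TGF-β alone, at 10.7. No list was tested against the others.

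The genes whose summed summit FPM over the 4 libraries were closest to those of Cdh1 were Ppara, Tada3 and Txnrd2, at distances of 0.194, 0.304 and 0.371 on a log2 scale with 1 added. Cdh1 had sums of 7.85, 3.81, 2.32 and 2.13 in the order untreated, TGF-β, set 1 and set 2, and Ppara had 7.98, 3.63, 1.97 and 1.94. A region that was not called added nothing to a sum, so a lower sum can reflect missing calls. Both Cdh1 regions called untreated and with TGF-β had the higher FPM with TGF-β. The upstream region had 1.64 untreated and 1.78 with TGF-β, and the intronic region 1.77 and 2.03. The ratios were 1.09 (95% interval 0.616 to 1.94) and 1.15 (0.669 to 1.98), and both intervals include 1. The genes closest to Cdh2 were Vcan, Rab23 and Chrna2, at 0.0263, 0.0387 and 0.0563. Cdh2 had sums of 2.34 with TGF-β and 1.91 with set 1 and no called region elsewhere. Likeness was measured over 4 libraries only.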

How the data were processed

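The authors sequenced the FAIRE libraries on an Ion Proton, trimmed reads to 36 bp, aligned these with bowtie2 to mm10, and took MACS2 peaks (2.1.0 in the submitters' processing notes) with q-values under 0.0001. In the deposited lists each peak has a fold enrichment (a ratio to local background), a summit position and -log10 p-values and q-values. The authors' lists also hold a score, which was not used.

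Groups came from the sample labels. Summit fragments were solved from fold enrichment and p-value with a pseudocount of 1, and were whole within 0.05 in 100% of peaks. The procedure was tested on simulated data. Depth is an estimate from the genome-wide background and an effective genome of 1.87 Gb. Intervals are exact 95% and cover counting error only. Peaks were merged by an overlap of at least 1 bp and placed with GENCODE basic vM21 gene models. Past the fold means 1.5-fold. Where a region was not called, its background was estimated from the libraries that called it, scaled to depth, and compared with listed peaks within 10% of it. Python 3.11.15, numpy 2.4.6, pandas 2.3.3, scipy 1.17.1 and matplotlib 3.10.9 were used.

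The members, gene lists and motifs were chosen with earlier results of these data known. Regions given in full were all promoter regions, all regions called in every library and the strongest of each other class of a gene. Other regions singled out were chosen after their values were seen. Of the other junction lists, genes named were among the 6 with the highest promoter fold enrichment. The alternatives were stricter q-values, equal list length, other upstream distances, a larger overlap, a narrower promoter and FPM ratios.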

Additional observations from a re-analysis of the deposited data

Results flagged for a closer look

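The Ctnnd1 region 20.0 kb upstream, at the start site of Selenoh, moved in opposite directions with the siRNA sets relative to siControl with TGF-β, by 0.048 on the log2 scale with set 1 and -0.36 with set 2. It drew attention because of this difference in sign, which was not tested. The ratios of summit fragments per M reads were 1.11 (95% interval 0.551 to 2.25) and 0.741 (0.350 to 1.56), and both intervals include 1.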

How the results depend on the processing

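With 1 list per group and no replicate spread, these results rest on calling limits and counting error. A planned stricter limit, a q-value of 1e-06, removed 0.320% to 0.951% of the peaks of each list and 0 peaks at the 8 loci, so it could not move any result here and says nothing about their stability. A limit of 1e-10 was therefore added after the data were seen. It removed 14.3% to 32.3% of each list and left 13, 17, 15 and 8 regions in the order untreated, TGF-β, set 1 and set 2. None of these region counts, nor the gained and lost counts, moved by over 1.5 times. The count of regions at least 1.5-fold lower with set 1 did move, from 2 to 0. Counts of single genes moved too. Cdh1 had 0 regions in place of 2 with set 1, and Cdh2 had 1 in place of 2 with TGF-β and with set 1. Ctnnb1 had 1 in place of 2 with set 1, and Ctnnd1 had 1 in place of 2 with set 2.

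Equal list length (14925 peaks) did change results. The regions with TGF-β numbered 11 in place of 20. For TGF-β against untreated, lost regions were 6 in place of 3 and gained regions 4 in place of 8, so the balance turned from gain to loss. Gained regions with set 1 were 6 in place of 3, and with set 2, 6 were lost in place of 13 and 4 gained in place of 2. No Cdh2 region was left in any library, and Cdh1 had 4, 2, 0 and 2. With TGF-β, Ctnna1 had 0 regions in place of 2, Ctnnd1 3 in place of 6 and Jup 3 in place of 5. Ctnnb1 had 1 in place of 2 with set 1.

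With 100 kb upstream the regions were 28, 37, 31 and 18 in the same order, 13 were gained with TGF-β, and 9 and 21 were lost with set 1 and set 2. Of the regions called in both libraries, 12 were then higher with TGF-β and 10 with set 1, and 2 fell by 1.5-fold with set 2. With 10 kb upstream set 2 had 5 regions, and 1 region in place of 2 fell by 1.5-fold with set 1. That count was 0 at a q-value of 1e-10 and 0 at equal list length, where 0 regions were higher with set 1 and 0 with set 2.

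The scale mattered. On fragments per M reads (FPM) in place of fold enrichment, the medians were 0.09, -0.28 and -0.72 for TGF-β, set 1 and set 2, in place of 0.05, -0.18 and -0.40. Regions at least 1.5-fold lower with set 2 were 5 in place of 0, and regions that much higher with TGF-β were 1 in place of 0. Regions higher with set 1 were 2 in place of 6, and with set 2, 0 in place of 1. An overlap of 50% of the shorter peak and a promoter within 1 kb moved no count by over 1.5 times. No paired analysis was possible because each group has 1 list.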
